A study of Arabidopsis thaliana with 9 samples.

Results

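A set of 54 of the 16826 probe sets other than controls differed in gct-2 seedlings from both wild-type and cct-1 seedlings of Arabidopsis thaliana, while wild type and cct-1 stayed close to each other. A probe set is a group of array probes that together read a gene's transcripts, in some cases those of several genes, and its value is given on the log2 scale. Members were chosen by their measured values. The gct-2 mean had to differ from the wild-type mean and from the cct-1 mean by 0.7 or more in the same direction, with all 3 gct-2 arrays on one side of the other 6. The wild-type and cct-1 means had to lie less than 0.3 apart, and the highest of the 9 arrays had to reach 7.0. Of 2 loci left out by name, 1 met these conditions. The differences that chose the members are therefore given as a description, and p-values printed for members are not read as support. Of the members 29 were higher and 25 were lower in gct-2.

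Both mutants carry a lesion in the CDK8 module of Mediator. Mediator passes signals from DNA-bound transcription factors to RNA polymerase, and the module joins and leaves it. CCT encodes the MED12 subunit and GCT the MED13 subunit, and the same module also holds a kinase and a cyclin. In plants the module is known for its part in embryo patterning and in the timing of later growth phases and of flowering. The study profiled above-ground parts of seedlings on expression arrays in 3 genotypes, each in the Col-0 background: wild type harvested at 7 days, cct-1 at 9 days and gct-2 at 9 days. Harvest was set by the stage at which the first leaf primordia measured 1 mm, in soil at 23 °C with 16 h of light. Each genotype had 3 arrays, each from a separate biological replicate that pooled 75 to 100 seedlings, and seedlings without cotyledons or leaf primordia were not used. A difference between gct-2 and wild type cannot be told apart from the difference in age, whereas gct-2 and cct-1 had the same age. The labels name 1 allele per gene and do not say what it changes in the protein.

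The array medians lay between 7.7 and 7.76. Pearson's r across the tested probe sets lay between 0.9739 and 0.9914 for pairs of arrays of 1 genotype. The array of gct-2 replicate 1 stood somewhat apart from the other gct-2 arrays, with a mean r of 0.9795 against 0.9858 and 0.9851, and the choice of members depended on it as described further down. In these whole-shoot pools fewer cells of a type and less RNA per cell cannot be told apart. Of 10 shoot markers, genes of photosynthesis, 4 had a named probe set, and all 4 lay between 11.26 and 13.46 on every array. Their summed level lay between 14.79 and 14.90 in wild type, 14.52 and 14.69 in cct-1 and 14.81 and 14.88 in gct-2. Of these LHCB4.2, a light-harvesting protein gene, rose in gct-2 by 0.30 from wild type and 0.52 from cct-1 (SE 0.07 each, limma adjusted p = 0.0242 and 0.00665). The other 3, PSAE-1, PSAN and PSBW, differed by -0.11, -0.15 and -0.01 from wild type and by 0.19, 0.09 and 0.24 from cct-1. None of these 3 reached a limma adjusted p under 0.05 in either comparison. The part of the 4 genes in the members' differences was not tested. PYK10, a beta-glucosidase of roots and hypocotyls and the root marker of 5 that had a named probe set, rose in both mutants, by 0.68 in gct-2 and 0.75 in cct-1 (SE 0.10 each, limma adjusted p = 0.00248 and 0.0019). It differed by -0.06 between the mutants. None of 7 seed markers had a named probe set here. Neither CCT nor GCT had a named probe set, and the labels were not checked by the mutated genes.

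Most members moved by about 2-fold or less, and 1 probe set by much more. Among the higher members the difference of gct-2 from wild type lay between 0.74 and 1.34 (median 0.95) and that from cct-1 between 0.70 and 1.26 (median 0.92). Among the lower members these differences lay between -4.81 and -0.78 (median -0.92) and between -4.61 and -0.70 (median -0.88). Over all 10395 tested probe sets the medians of the same differences were -0.01 and -0.02. At least a 2-fold difference from both genotypes was reached by 10 higher and 4 lower members. Averaged over the 9 arrays, the median level was 7.91 for the higher and 7.56 for the lower members, against 9.08 for all tested probe sets, so the members lay toward the dim end of what was tested.

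**Figure D1:**
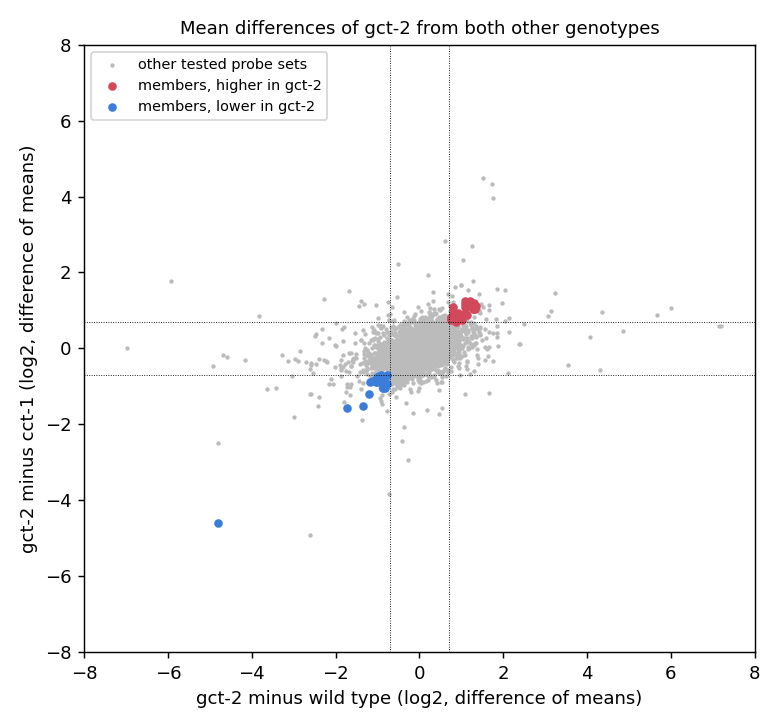
The mean log2 difference of gct-2 from wild type (horizontal axis) and from cct-1 (vertical axis) for each tested probe set (grey) and for the 54 members (red, higher in gct-2; blue, lower). Dotted lines mark 0.7 either way, and the lower member far from the rest, at -4.81 and -4.61, has no single gene name.

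Probe sets that exceeded the 40th percentile of an array, about 6.86, on at least 3 arrays were tested with limma. That held for 50 of the 54 members. The other 4, AT2G16990, AT1G73750, 246295_at and AT2G18900, were too dim. At an adjusted p under 0.05, 25 of 26 tested higher members were called higher in gct-2 than in wild type, where 7.48% of all tested probe sets were. All 24 tested lower members were called lower, beside 7.77% of all. Against cct-1, 22 of 26 were called higher and 21 of 24 lower, beside 3.19% of all in each direction. The same 22 and 21 were called in both comparisons, beside 1.34% and 1.36% of all. The rule used these contrasts, so nothing is read from these counts. The adjusted p of single members, given below where a call was missed, is a description for the same reason. The share of all tested probe sets with all 3 gct-2 arrays above the other 6 was 6.29%, and with all 3 below 6.26%. Between cct-1 and wild type, where the rule set an upper limit, 0 of the 50 tested members were called by limma (3 had an unadjusted p under 0.05), beside 12.9% of all (6.3% higher and 6.63% lower in cct-1). The gap between the gct-2 arrays and the nearest array of the other genotypes ran from 0.04 for TET3 to 2.43 for 266693_at. Members called in both gct-2 comparisons numbered 43 with all arrays, 27 with cct-1 replicate 2 left out, and 26 and 25 with replicate 2 or 3 of gct-2 left out.

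The members varied more within a genotype than the tested probe sets as a whole. The median SD over 3 arrays was 0.27 in wild type, 0.23 in cct-1 and 0.16 in gct-2 for the higher members, and 0.15, 0.18 and 0.26 for the lower members. For all tested probe sets it was 0.11, 0.13 and 0.11. The members were also dimmer, and probe sets of matched level were not compared. Of the higher members 20 had a cct-1 mean above the wild-type mean and 9 had one below it. Of the lower members 18 had a cct-1 mean below the wild-type mean and 7 had one above it. These differences stayed within 0.3 by the rule. Over all tested probe sets the median difference of cct-1 from wild type was 0.01. Their shares above and below wild type were not counted, so nothing is read from these numbers. In gct-2, replicate 1 was the array closest to the other genotypes for 14 of 29 higher and 14 of 25 lower members. Replicate 3 was closest for 6 and 7, and replicate 2 for 9 and 4. How often each array was closest over all tested probe sets was not counted. A trait of the array and a trait of the members thus cannot be told apart here.

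**Figure D2:**
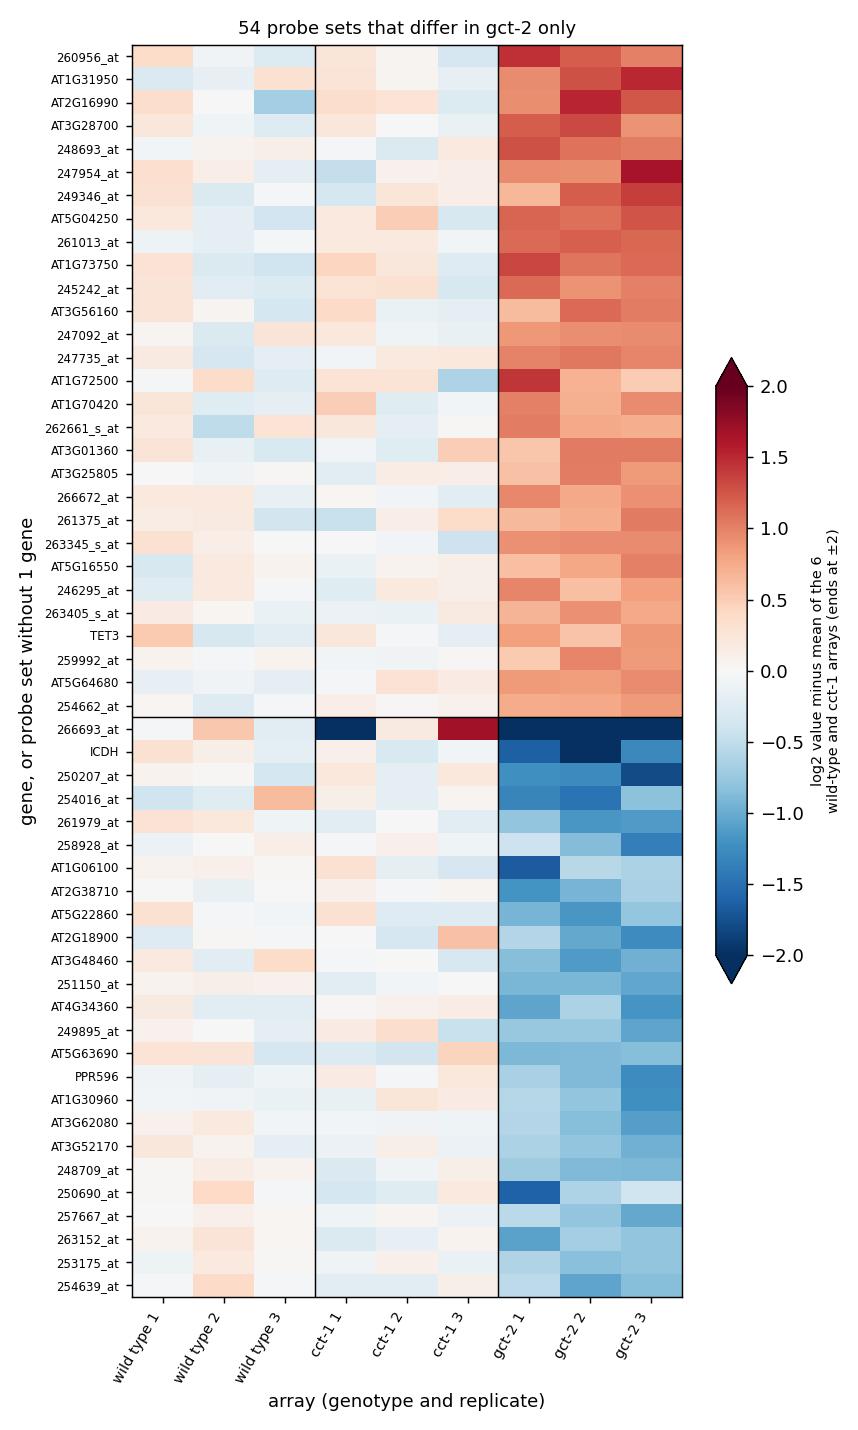
The log2 value of each of the 54 members (rows, 29 higher members above the line and 25 lower ones below it) on each of the 9 arrays (columns), less the mean of the 6 wild-type and cct-1 arrays. Red is higher and blue lower, and the colour scale ends at 2 either way. The gct-2 columns differ from the other 6 in every row, as the rule required. The rule also kept the wild-type and cct-1 means close, and their columns are pale in nearly all rows, with 266693_at as the clearest exception.

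Among the members lower in gct-2 with a named gene, several encode enzymes. ICDH (AT1G54340, chromosome 1) encodes an NADP-dependent isocitrate dehydrogenase of peroxisomes, which supplies reducing power there. It read 7.81, 7.63 and 7.32 in wild type, 7.62, 7.21 and 7.46 in cct-1 and 5.88, 5.49 and 6.22 in gct-2. All gct-2 arrays lay under the filter, so the difference was at least 1.68-fold from wild type and at least 1.5-fold from cct-1 (3.31-fold and 2.96-fold as measured). Such lower bounds raise each dim value to the filter of its array, and the spread between arrays is not part of them.

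AT1G06100, on chromosome 1, belongs to a family of fatty acid desaturases, which place double bonds in fatty acid chains. It read 9.22, 9.25 and 9.17 in wild type, 9.44, 8.97 and 8.81 in cct-1 and 7.47, 8.59 and 8.51 in gct-2. The gct-2 mean was 2.03-fold below wild type and 1.84-fold below cct-1, with replicate 1 lowest by far, and its call against cct-1 was missed (limma adjusted p = 0.0991). AT3G48460, a GDSL-type lipase or esterase gene on chromosome 3, read 8.45, 8.05 and 8.62 in wild type, 8.23, 8.26 and 7.93 in cct-1 and 7.41, 7.12 and 7.29 in gct-2. That was 2.14-fold and 1.82-fold lower in gct-2, and the lowest array of the other genotypes lay at 7.93 against 7.41 for the highest gct-2 array. AT5G22860, on chromosome 5, encodes a protease of the S28 serine carboxypeptidase family, which trims proteins from their ends. Its values were 7.59, 7.26 and 7.24 in wild type, 7.59, 7.03 and 7.03 in cct-1 and 6.36, 6.12 and 6.52 in gct-2. The gct-2 arrays lay under the filter, which gave at least a 1.43-fold difference from wild type and 1.29-fold from cct-1. AT4G34360, a methyltransferase-family gene on chromosome 4, read 7.94, 7.54 and 7.52 in wild type, 7.78, 7.84 and 7.91 in cct-1 and 6.71, 7.12 and 6.58 in gct-2. Its gct-2 mean was 1.82-fold below wild type and 2.06-fold below cct-1 as measured. For AT4G34360 2 gct-2 arrays were under the filter, and with these raised to it the folds were 1.66 and 1.87.

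Genes with a part in RNA handling or GTP binding were also among the lower members. PPR596 (AT1G80270, chromosome 1) encodes a pentatricopeptide repeat protein of mitochondria, a family that binds organelle RNA and acts in its editing and processing. It read 8.47, 8.36 and 8.46 in wild type, 8.70, 8.51 and 8.76 in cct-1 and 7.89, 7.66 and 7.29 in gct-2. The gct-2 mean was 1.76-fold below wild type and 2.06-fold below cct-1, and all 9 arrays lay above the filter. AT1G30960, a gene of a GTP-binding protein family on chromosome 1, read 6.90, 6.89 and 6.83 in wild type, 6.80, 7.20 and 7.12 in cct-1 and 6.39, 6.17 and 5.73 in gct-2. The other genotypes lay close to the filter and gct-2 under it, so that the bounds were 1.02-fold and 1.15-fold only.

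AT2G38710, on chromosome 2, belongs to the AMMECR1 family, named for a human gene. It was among the brightest named members, at 10.46, 10.31 and 10.45 in wild type, 10.56, 10.44 and 10.5 in cct-1 and 9.26, 9.52 and 9.80 in gct-2. The 6 other arrays spanned 10.31 to 10.56, and gct-2 was 1.84-fold and 1.96-fold lower. AT3G52170 read 9.42, 9.25 and 9.01 in wild type, 9.07, 9.31 and 9.07 in cct-1 and 8.56, 8.39 and 8.23 in gct-2, which was 1.78-fold and 1.69-fold lower. AT3G62080 read 7.59, 7.69 and 7.44 in wild type, 7.44, 7.43 and 7.41 in cct-1 and 6.92, 6.65 and 6.39 in gct-2, with gct-2 1.89-fold and 1.71-fold lower as measured. In AT3G62080 2 gct-2 arrays were under the filter, and with these raised to it the folds were 1.63 and 1.47. Both genes lie on chromosome 3, and in both the gct-2 arrays kept clear of the others by 0.45 or more. AT5G63690, on chromosome 5, read 7.22, 7.21 and 6.62 in wild type, 6.68, 6.59 and 7.40 in cct-1 and 6.05, 6.06 and 6.10 in gct-2. AT2G18900, on chromosome 2, read 6.40, 6.68 and 6.63 in wild type, 6.66, 6.31 and 7.24 in cct-1 and 6.07, 5.63 and 5.39 in gct-2. These last 2 lay near or under the filter throughout. AT5G63690 had bounds of 1.12-fold and 1.03-fold, and no fold is given for AT2G18900.

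Among the members higher in gct-2, transport and membrane proteins were named 3 times. AT3G56160, on chromosome 3, belongs to the bile acid:sodium symporter family, whose plant members carry organic acids and related compounds across the plastid envelope. It read 7.26, 7.06 and 6.66 in wild type, 7.39, 6.87 and 6.81 in cct-1 and 7.64, 8.15 and 8.04 in gct-2. The gct-2 mean was 1.93-fold above wild type and 1.89-fold above cct-1 as measured, and 1.86-fold above each with the 1 wild-type and 2 cct-1 arrays under the filter raised to it. As the rule required, the lowest gct-2 array, 7.64, lay above the highest other one, 7.39. AT2G16990, a major facilitator superfamily transporter gene on chromosome 2, read 6.10, 5.75 and 5.08 in wild type, 6.10, 6.03 and 5.48 in cct-1 and 6.69, 7.28 and 7.00 in gct-2. Wild type and cct-1 lay under the filter, and so did gct-2 replicate 1, so the bounds were 1.1-fold and 1.09-fold (2.54-fold and 2.18-fold as measured). TET3 (AT3G45600, chromosome 3) encodes a tetraspanin, a small protein that spans the membrane and gathers others into patches. Its values were 8.18, 7.34 and 7.42 in wild type, 7.88, 7.61 and 7.48 in cct-1 and 8.48, 8.22 and 8.52 in gct-2. The gct-2 mean was 1.69-fold and 1.68-fold higher, but wild-type replicate 1 at 8.18 came within 0.04 of the lowest gct-2 array, and the call against cct-1 was missed (limma adjusted p = 0.0754).

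AT1G31950, on chromosome 1, belongs to the terpene synthases, which build the carbon skeletons of terpenoids. It read 7.20, 7.33 and 7.79 in wild type, 7.75, 7.54 and 7.33 in cct-1 and 8.43, 8.76 and 9.00 in gct-2. It ranked first among the named higher members by the smaller of its 2 differences, with gct-2 2.45-fold above wild type and 2.29-fold above cct-1. AT5G04250, on chromosome 5, encodes a cysteine protease of the OTU type, a family that removes ubiquitin from proteins. Its values were 6.20, 5.81 and 5.62 in wild type, 6.19, 6.48 and 5.68 in cct-1 and 7.16, 7.10 and 7.25 in gct-2. The filter lay between the groups, and gct-2 was at least 1.25-fold above wild type and 1.23-fold above cct-1. AT1G72500, on chromosome 1, resembles inter-alpha-trypsin inhibitor heavy chains of animals. It read 6.63, 7.01 and 6.39 in wild type, 6.92, 6.92 and 6.03 in cct-1 and 8.07, 7.35 and 7.16 in gct-2, and its gct-2 arrays had an SD of 0.48. It was the tested higher member called in neither comparison (limma adjusted p = 0.0897 against wild type and 0.115 against cct-1).

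Other higher members were named by locus. AT3G28700, on chromosome 3, read 7.39, 7.08 and 6.90 in wild type, 7.39, 7.17 and 7.03 in cct-1 and 8.37, 8.48 and 8.06 in gct-2, which was 2.26-fold and 2.15-fold higher. AT3G25805, also on chromosome 3, was the brightest named higher member. It read 9.69, 9.63 and 9.73 in wild type, 9.49, 9.84 and 9.84 in cct-1 and 10.28, 10.73 and 10.56 in gct-2, 1.79-fold and 1.74-fold higher. In both genes every array lay above the filter. AT1G70420, on chromosome 1, read 7.46, 6.98 and 7.03 in wild type, 7.71, 6.99 and 7.17 in cct-1 and 8.23, 7.94 and 8.17 in gct-2. AT5G16550, on chromosome 5, read 7.56, 8.07 and 7.96 in wild type, 7.75, 7.96 and 7.99 in cct-1 and 8.49, 8.65 and 8.90 in gct-2. The first was 1.94-fold and 1.77-fold higher and the second 1.76-fold and 1.71-fold higher. AT1G73750, on chromosome 1, read 6.03, 5.45 and 5.35 in wild type, 6.18, 5.97 and 5.49 in cct-1 and 7.08, 6.82 and 6.88 in gct-2. AT3G01360, on chromosome 3, read 6.63, 6.22 and 6.07 in wild type, 6.32, 6.12 and 6.86 in cct-1 and 6.92, 7.41 and 7.41 in gct-2. Both were under the filter in wild type and cct-1, with bounds of 1.06-fold and 1.04-fold for AT1G73750 and of 1.32-fold and 1.30-fold for AT3G01360. AT3G01360 missed the call against cct-1 (limma adjusted p = 0.0658), as did the lower member AT5G63690 (0.066).

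**Figure D3:**
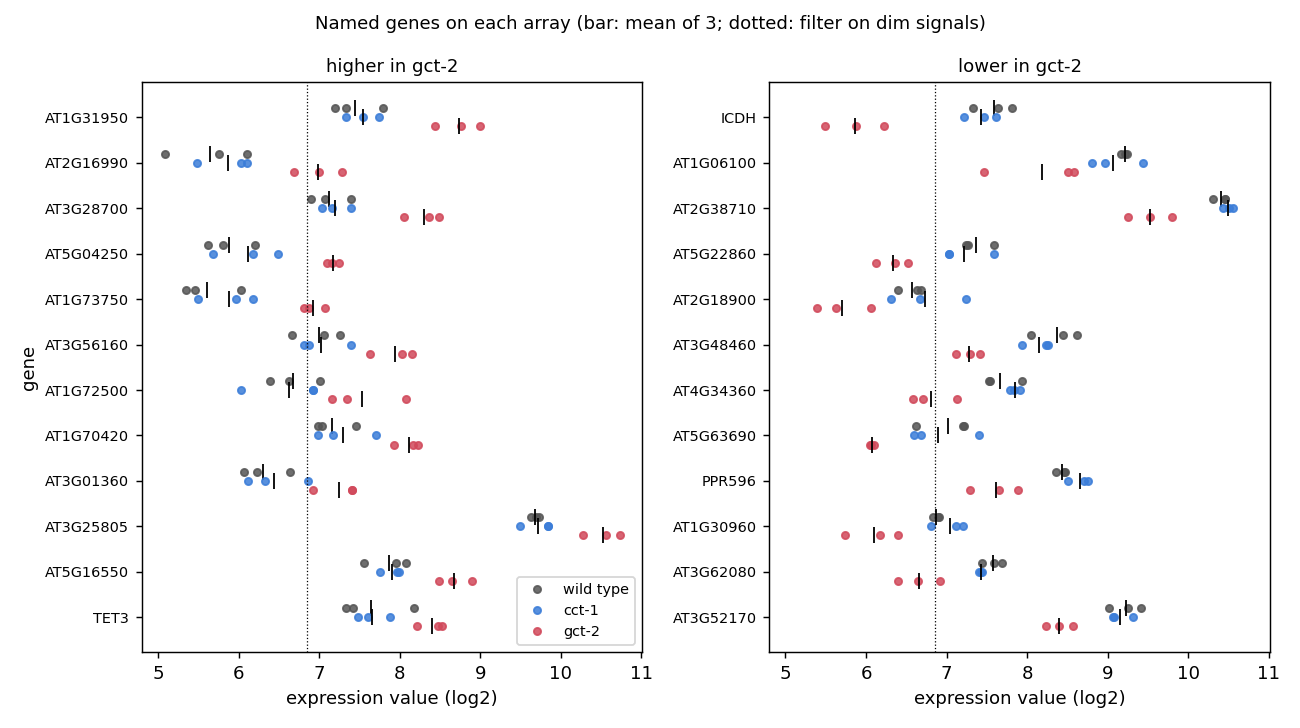
The log2 value on each array (points: grey wild type, blue cct-1, red gct-2) for 12 named genes higher in gct-2 (left) and 12 lower in gct-2 (right), with the mean of 3 arrays as a bar and the filter on dim signals as a dotted line. By the rule the red points lie to the right of the others on the left panel and to their left on the right panel. They come closest for TET3 and AT3G01360, and several genes straddle the dotted line.

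A name of a single gene was available for 25 of the 54 members, 13 higher and 12 lower. Another 2 higher members read several genes and 27 members had none listed. Ranked by the smaller of the differences from wild type and cct-1, the largest without a gene name were those of 266693_at and 250207_at among the lower and of 260956_at and 248693_at among the higher members. On 266693_at wild type read 8.69, 9.26 and 8.50, cct-1 6.56, 8.89 and 10.40 and gct-2 4.12, 3.77 and 4.13. The gct-2 arrays were all under the filter, at least 3.93-fold below wild type and 3.42-fold below cct-1 (28-fold and 24.4-fold as measured). Its cct-1 arrays spread far more than those of any other lower member, with an SD of 1.93, and they ranged from below to above the wild-type arrays. 250207_at read 10.52, 10.47 and 10.10 in wild type, 10.65, 10.27 and 10.66 in cct-1 and 9.23, 9.17 and 8.66 in gct-2, a bright signal 2.54-fold and 2.84-fold lower in gct-2. 260956_at read 10.87, 10.43 and 10.23 in wild type, 10.74, 10.54 and 10.15 in cct-1 and 11.95, 11.71 and 11.50 in gct-2, with gct-2 2.32-fold and 2.37-fold higher. 248693_at was tight in wild type, at 7.5, 7.61 and 7.66, and read 7.51, 7.25 and 7.75 in cct-1 and 8.82, 8.63 and 8.57 in gct-2. The smallest gct-2 value exceeded the largest other one by 0.64 on 260956_at and by 0.82 on 248693_at.

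At the limit of 0.7 there was no gap in the values. The named members just inside it had a smaller difference of 0.74 for AT5G64680, 0.75 for TET3 and 0.75 for AT3G52170. AT5G64680 read 8.40, 8.49 and 8.39 in wild type, 8.54, 8.85 and 8.72 in cct-1 and 9.41, 9.40 and 9.52 in gct-2. The named genes just outside that met every other condition were AT5G07810 at 0.6996, AT1G79470 at 0.6976 and AT4G37180 at 0.6957.

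Relatives of the members were compared as a description. The rule was applied to every probe set, and a relative that met it would have counted as a member. The relatives here are thus those that failed it, and nothing is read from their number of calls. The relatives were listed after the members were known, from the families of 7 members, and only those with a named probe set above the filter were tested. The ADS-type desaturases (9 genes listed, with AT1G06100) and the terpene synthases (10 genes listed, with AT1G31950) had no named probe set but the member's own. By limma 0 of 11 tested relatives were called in gct-2 against either wild type or cct-1 (0 and 2 had an unadjusted p under 0.05), beside 15.3% and 6.39% of all tested probe sets called in either direction. ICDH was low in gct-2 while cICDH, the cytosolic enzyme and the brightest of the family, differed by 0.03 from wild type and -0.05 from cct-1 (SE 0.07). AT5G14590, another NADP-dependent isocitrate dehydrogenase gene, differed by 0.20 and 0.16 (SE 0.10). IDH-V and IDH-VI, subunits of the NAD-dependent enzyme of the citric acid cycle, differed by -0.12 and 0.07 from wild type and by -0.11 and -0.01 from cct-1. The tested S28 proteases other than AT5G22860, AT2G24280 and AT5G65760, differed by 0.13 and 0.14 from wild type and by -0.24 and -0.04 from cct-1. BASS1 and BASS3, relatives of AT3G56160, differed by 0.09 and 0.10 from wild type and by 0.38 and -0.15 from cct-1. Among the tetraspanins TET8 was highest in gct-2, with 0.51 and 0.24 (SE 0.30), while TET7 and TET10 differed by -0.05 and 0.03 from wild type. PPR595, the close relative of PPR596, was too dim to be tested and differed by -0.93 and -0.64 at levels under the filter on all arrays. The difference between a member and its relatives was not itself tested.

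**Figure D4:**
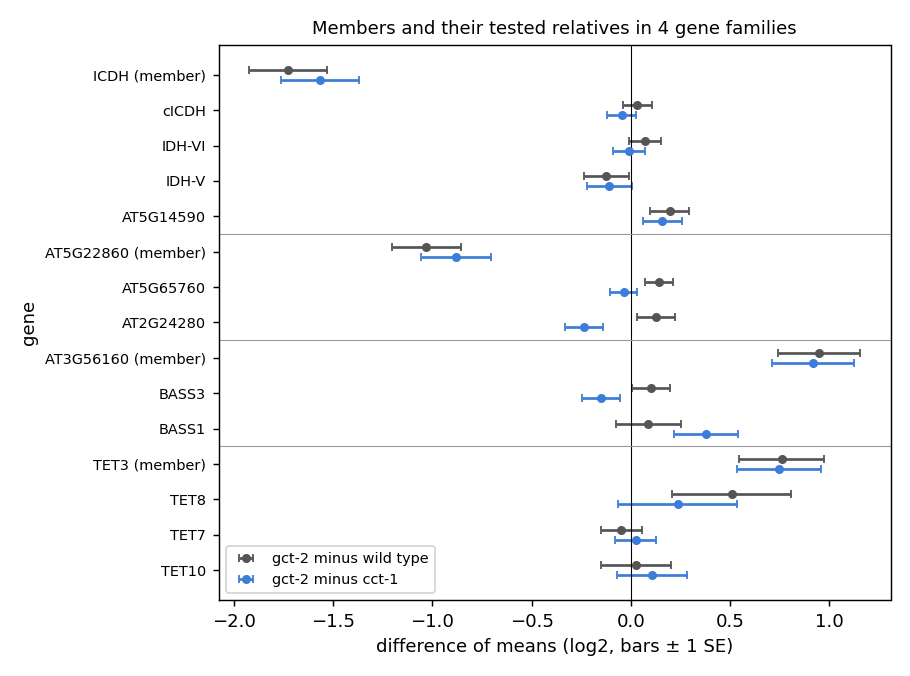
The difference of gct-2 from wild type (grey) and from cct-1 (blue), log2 with 1 SE either way from limma, for members and their tested relatives in 4 families separated by lines. The 4 members lie at -1.73, -1.03, 0.95 and 0.76 from wild type, and of the 11 relatives TET8 at 0.51 lies farthest from 0.

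The named members were spread over all 5 nuclear chromosomes, with 8 on chromosome 1, 3 on chromosome 2, 8 on chromosome 3, 1 on chromosome 4 and 5 on chromosome 5. Chromosome 1 held 32% of them and 25.8% of the tested probe sets with a gene name, and chromosome 3 held 32% and 20.8%. No 2 of them were next to each other. Of the 50 protein-coding genes directly beside a named member 14 had a named probe set and 11 were tested. None of the 14 was a member, and 0 of the 14 differed by 0.7 or more from both genotypes in the direction of its neighbour. Members were 54 of all 16826 probe sets, so 0 of 14 says little and nothing is read from it. By limma 1 of the 11 was called in gct-2 against wild type, beside 15.3% of all tested probe sets. Of the 11, 5 had an unadjusted p under 0.05 in that comparison. The AT1G80280 locus beside PPR596 was the tested neighbour called in gct-2 against wild type (log2 difference -0.53, SE 0.12, limma adjusted p = 0.0212), and it differed by -0.32 from cct-1. GCT itself lies on chromosome 1. ICDH was the named member closest to it, with 99 protein-coding genes between them in the RefSeq order, and the next, AT1G70420, had 1437.

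None of the 25 members with a single gene name belonged to the pathway lists for cysteine synthesis, sulfate uptake and reduction, gibberellin, the seed vacuole aspartic proteases and the CDK8 module. These lists held 51 genes, of which 13 had a named probe set and 10 were tested, so most of their genes were not examined. Members were 25 of the 9335 probe sets with 1 gene, so their absence among 13 is no result about the lists. In gct-2 against wild type 4 of the 10 were called higher and 2 lower, beside 7.48% and 7.77% of all tested probe sets. Against cct-1 2 were called higher and 0 lower, beside 3.19% each way (limma, 5 of 10 with an unadjusted p under 0.05). The median difference over the 10 was 0.23 from wild type and 0.06 from cct-1. OASA2, annotated as a cysteine synthesis enzyme, was called in both gct-2 comparisons but also higher in cct-1 than in wild type (5.54 ± 0.57 against 3.77 ± 0.10, SD, n = 3 each), so it was no member. It lay under the filter on all wild-type and cct-1 arrays and reached 6.99 ± 0.14 in gct-2. GID1A, a gibberellin receptor gene, rose in gct-2 by 0.42 from wild type and 0.32 from cct-1 (SE 0.07 each, limma adjusted p = 0.00633 and 0.0382) and differed by 0.10 between cct-1 and wild type, which is the members' pattern at a smaller size. SLY1, an F-box gene of gibberellin signalling, rose against wild type by 0.39 and differed by 0.16 from cct-1. PASPA2, a vacuolar aspartic protease gene, rose by 2.14 against wild type and differed by 0.44 from cct-1. The 2 tested genes of the CDK8 module, both for cyclin C, differed by 0.18 and 0.23 from wild type and were not called. Of the sulfate genes APS3 and SIR, an ATP sulfurylase and the sulfite reductase, fell in gct-2 against wild type by 1.23 and 0.76 on the log2 scale, and differed by -0.20 and -0.40 from cct-1.

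To read the rule's choice on arrays that had no part in it, the same rule was applied without the 3 arrays of 1 replicate number, and the probe sets so chosen were read on the arrays left out. This was added after the data were seen. The probe sets so chosen are not the 54 members: 38 of 123 chosen without replicate 1, 39 of 64 without replicate 2 and 30 of 45 without replicate 3 were members on all 9 arrays. Without replicate 2 the rule chose 64 probe sets, and on the arrays left out 61 of them (95.3%) had gct-2 beyond both other genotypes in the same direction. Without replicate 3 it chose 45, of which 43 (95.6%) did so. Among tested probe sets whose 2 gct-2 differences on the choosing arrays shared a sign, of whatever size, 57.6% and 59.3% did. Without replicate 1 the rule chose 123, of which 80 (65%) did so, beside 48.3%. A difference of at least 0.7 from both genotypes was seen on the left-out arrays in 26 of 64, 22 of 45 and 22 of 123 chosen probe sets (40.6%, 48.9% and 17.9%), beside 2.89%, 4.02% and 2% of those tested probe sets. The chosen probe sets had to differ by 0.7 or more on the choosing arrays, and those set beside them did not. The shares are thus unlike, and nothing is read from the excess. Replicate numbers do not pair the arrays, so other splits were possible and were not made. With replicate 2 left out, the median difference was 0.96 from wild type on the choosing arrays and 0.83 on the arrays left out, with replicate 3 left out 0.93 and 0.84, and with replicate 1 left out 0.95 and 0.38.

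**Figure D5:**
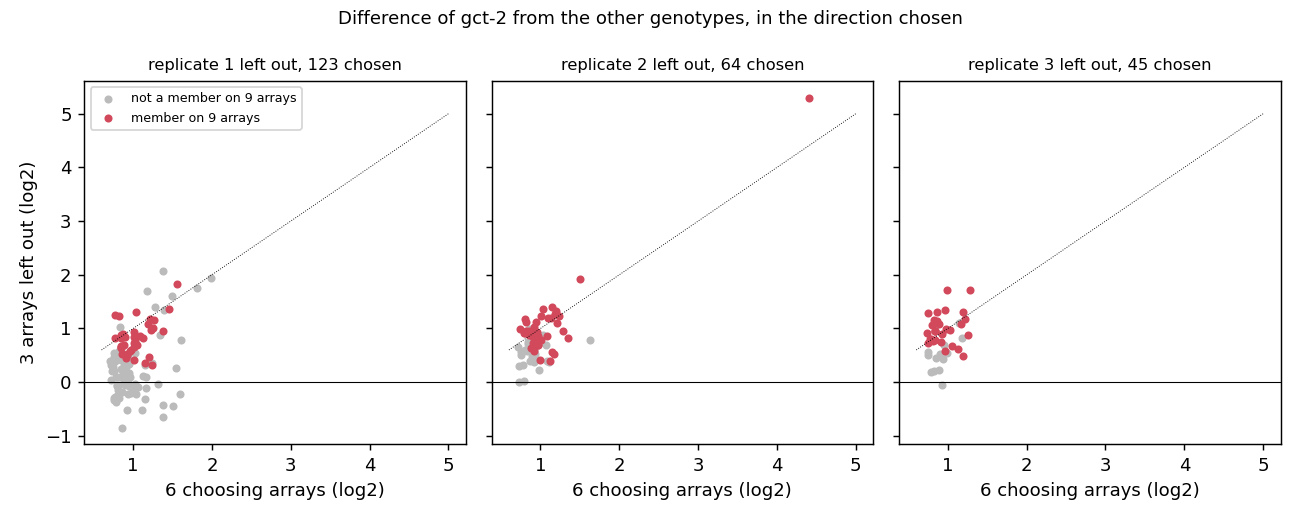
For each probe set chosen without the arrays of replicate 1 (left), 2 (middle) or 3 (right), the mean of the differences of gct-2 from wild type and cct-1, in the direction chosen, on the 6 choosing arrays (horizontal axis, log2) and on the 3 arrays left out (vertical axis, log2). Red points also met the rule on all 9 arrays, which uses the arrays left out, and the dotted line marks equal differences. With replicate 1 left out many grey points lie near or below 0.

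Single arrays were also left out, 1 at a time, and the number chosen moved most without gct-2 replicate 1. Why the probe sets chosen without replicate 1 held less often on the arrays left out was not tested. Without gct-2 replicate 1 the rule chose 99 probe sets in place of 54, 35 higher and 64 lower, and 48 of the 54 members were among them. Of the 51 that entered, 42 were lower in the other gct-2 arrays, and in 26 of the 51 the value of gct-2 replicate 1 lay within the range of the wild-type and cct-1 arrays. The 51 failed the rule once that array was included, so its place among the others is partly built in. Without any other single array the number chosen lay between 46 and 65. Leaving out wild-type replicate 1 or cct-1 replicate 1 brought in 17 and 20 probe sets that were not members. Of the 54 members 12 met the rule whichever array was left out, and the named ones were ICDH, AT2G38710, AT1G31950, AT3G28700 and AT3G56160. The remaining arrays had also chosen them, so this describes how far they lay beyond the limits and is no separate support. With the roles of the genotypes exchanged and the same limits, 43 probe sets set cct-1 apart from wild type and gct-2 (25 higher, 18 lower), and 216 set wild type apart from both mutants (125 higher and 91 lower in wild type).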

How the data were processed

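The deposited values were log2 probe set expression values, 1 column per array, made by the authors, and were used as deposited. Per the submitters' processing notes GCRMA and MAS5 were used, with neither role nor version stated, and no source used here says how the 16863 probe sets were selected. The log2 scale was read from the values. The 37 control probe sets were left out. Members were found with Python 3.11.15 and pandas 2.3.3. A linear model of the 3 genotype means over all 9 arrays was run in R 4.3.3 with limma 3.58.1 (lmFit, eBayes) for the 10395 probe sets above the 40th percentile of their array on at least 3 arrays, with Benjamini-Hochberg adjustment over all of them. The fit was tested on simulated data. Genes were named from GEO's platform annotation with loci looked up in a RefSeq table of TAIR10.1: 9335 probe sets had 1 gene, 351 several and 7140 none listed, and 9291 matched a RefSeq locus. Named genes were the 12 each way with the largest smaller difference, the 3 on each side of the 0.7 limit, the 2 largest unnamed members each way, and members of pathway lists and families. The words planned for sorting members into families matched none of their symbols, so families were listed by locus. Members, lists and rules were chosen with earlier results of these data known. Alternatives were other limits, quantile normalization, median centring, no filter, an intensity trend with robust variance, a block for the replicate number, single arrays left out, and fits of the 2 groups compared. Precision is limited by the number of arrays. The standard error of a difference had a median of 0.111.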

Additional observations from a re-analysis of the deposited data

How the results depend on the processing

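The number of members was 54 and became 159 with a difference of 0.5, 14 with 1.0, 35 with a highest array of 8.0 or more and 127 with no minimum level. It was 56 with quantile normalization, which kept 52 of the 54, and 57 with median centring, which kept 50. Leaving out single arrays gave 46 to 99, the latter without gct-2 replicate 1. Of the 403 values of single members and of members chosen on fewer arrays under other settings 0 changed sign. Leaving out single arrays could not change a member's sign, because the rule put all gct-2 arrays on one side of the others. The numbers of members chosen on fewer arrays have no sign to change, so nothing is read from this. Probe sets called in gct-2 against wild type numbered 1586, with 2640 without the filter and 805 to 1646 without single arrays (805 with wild-type replicate 2 left out, 902 and 1044 with gct-2 replicate 2 or 3). In gct-2 against cct-1 they numbered 664, with 389 when only the 2 groups were fitted and 151 to 647 without single arrays. The lowest counts were 151 and 184 without gct-2 replicates 3 and 2, 219 without cct-1 replicate 2, 391 without wild-type replicate 2, 391 without cct-1 replicate 3 and 400 without cct-1 replicate 1. In cct-1 against wild type they numbered 1344, with 590 to 1310 without single arrays (590, 853 and 792 without wild-type replicates 2 and 1 and cct-1 replicate 2). With the replicate block the counts were 1272, 358 and 979, and 39 members were called in both gct-2 comparisons. Same-numbered arrays did not deviate together (r between -0.268 and 0.0881 over 9 pairs), so the numbers were not taken as pairs. The causes were not tested. Whether signals under the filter exceed background is not known here, which limits the folds of dim members.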
